A study of Homo sapiens with 12 samples.

Results

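The long intergenic noncoding RNAs (lincRNAs) expressed in 786-O cells were followed after silencing of CBX7, a chromobox subunit of Polycomb repressive complex 1. The members were the genes of biotype lincRNA with a mean of at least 1 FPKM over the 6 libraries of the 786-O table, where FPKM counts fragments per kilobase of a gene's length after scaling to library size. This rule kept 281 of the 7629 lincRNA genes among the 58735 genes listed for 786-O. Of their symbols, 81 were also found in the table of 29890 genes for 5637 cells. The members were chosen by their measured mean FPKM over both arms in 786-O, so levels are given as a description, and a lincRNA that is high in 1 arm only could enter through that arm. Both arms averaged at least 1 FPKM for 216 of the 281, the shCBX7 arm lay under 1 FPKM for 21 and the control arm for 44. Around the threshold, LINC01301 with 0.998 FPKM, LINC01786 with 0.998 FPKM and LINC02057 with 0.993 FPKM fell just outside, while AC023794.2 with 1.0 FPKM, LINC00460 with 1.01 FPKM and AC015813.4 with 1.01 FPKM lay just inside.

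The RNA-seq series held 12 libraries of 2 human cancer cell lines, 786-O (renal cancer) and 5637 (bladder cancer). Each line had 3 libraries labelled shCBX7, with the genotype given as case, and 3 labelled sh control, with the genotype given as control; the labels list no treatment beyond that. The titles of 2 of the 5637 controls begin with 5638 and 5639 in place of 5637, and all 3 control titles of that line end in the number 1, while the cell line field reads 5637 for each of them. All cells grew in RPMI-1640 medium with fetal bovine serum. The hairpin sequences, whether 1 or several hairpins were used, whether cells were pools or clones and the time after silencing are not stated in the sources at hand. No label says whether libraries within an arm were grown separately; p-values therefore rest on variation among 3 libraries per arm, part or all of which could be technical.

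LincRNAs are transcribed by RNA polymerase II from stretches between protein-coding genes and are mostly spliced and polyadenylated, but they encode no known protein. Most are present at lower levels than messenger RNAs, and few have a known function. Some act in the nucleus, as scaffolds of nuclear bodies or on genes close by, some bind proteins or microRNAs in the cytoplasm, and others are host transcripts whose introns or exons are processed into small nucleolar RNAs (snoRNAs) or microRNAs. Polycomb complexes, to which CBX7 belongs, bind RNA, and several lincRNAs have been tied to them in the literature.

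CBX7 itself was lower in both lines. In 786-O it had 1.01, 0.892 and 1.07 FPKM in the shCBX7 libraries, against 1.63, 1.75 and 1.49 FPKM in the controls. The 786-O arms did not overlap (log2 change -0.40, SE 0.076, limma adjusted p = 0.00364). In 5637 it had 1.86, 1.8 and 1.97 FPKM in the shCBX7 libraries, against 2.19, 2.17 and 2.42 FPKM in the controls (log2 change -0.18, SE 0.046, limma adjusted p = 0.0188). The 5637 arms did not overlap either, but the call was lost without shCBX7 library 2 (log2 change -0.16, limma adjusted p = 0.0608) or without control library 3 (log2 change -0.14, limma adjusted p = 0.0586). Reads recovered from the FPKM steps came to 16384151 to 18868874 per library in 786-O and 20188872 to 33205322 in 5637. The kidney lineage factor PAX8 averaged 30.3 ± 0.396 FPKM in shCBX7 cells, against 37.8 ± 1.53 FPKM in control cells in 786-O, and the basal keratin KRT5 averaged 265 ± 2.06 FPKM in shCBX7 cells, against 189.5 ± 1.84 FPKM in control cells in 5637. Other markers of the lines are given as control means, 786-O first and 5637 second. PAX2 had 1.14 and 0.016 FPKM, VIM 351 and 7.46 FPKM, and KRT17 0.083 and 208.5 FPKM. TP63 had 0.052 and 44.8 FPKM, and GATA3 0.87 and 11.6 FPKM. The renal cancer marker CA9 was lower in 786-O (0.67 and 2.7 FPKM), and the urothelial marker UPK2 was low in both lines (0.23 and 0.29 FPKM). Of 3 leukocyte and 3 endothelial markers, PTPRC and CDH5 were listed at 0 in every 786-O library and did not exceed 0.0171 FPKM in 5637, but the others were above 0. The leukocyte markers (with CD14 and CORO1A) summed to 1.3 to 1.65 FPKM in shCBX7 libraries, against 1.6 to 2.12 FPKM in controls of 786-O, and to 16.4 to 16.6 FPKM in shCBX7 libraries, against 13.6 to 14 FPKM in controls of 5637, where CORO1A, an actin-binding protein gene, was called higher (log2 change 0.26, SE 0.025, limma adjusted p = 0.000364). The endothelial markers (with PECAM1 and VWF) summed to 0.305 to 0.407 FPKM in shCBX7 libraries, against 0.193 to 0.281 FPKM in controls of 786-O, and without PECAM1 to 0.181 to 0.248 FPKM in shCBX7 libraries, against 0.211 to 0.227 FPKM in controls of 5637. The part of these markers in the results was not tested.

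In 786-O, more of the expressed lincRNAs were higher than lower after CBX7 silencing. Of the 281, 104 (37.0%) were called higher and 37 (13.2%) lower, 141 in all, by limma on log2(FPKM + 1) with a Benjamini-Hochberg adjusted p under 0.05. Over all 13220 genes tested in the line the calls made up 51.0%, with 24.7% higher and 26.2% lower. The members' share called lay near that of all genes, while their share of rises lay above it and their share of falls below it. Their median log2 change was 0.18, beside -0.01 over all tested genes. Protein-coding genes averaging 1 FPKM or more were higher in 26.7% and lower in 30.4% of 10069 cases. Antisense RNA genes at that level were higher in 26.8% and lower in 10.3% of 310 cases, and lincRNAs tested with a mean under 1 FPKM were higher in 25.3% and lower in 3.68% of 190 cases. Transcribed unprocessed pseudogenes averaging 1 FPKM or more were higher in 36.25% and lower in 8.75% of 80 cases, shares close to those of the members. Processed pseudogenes at that level were higher in 9.88% and lower in 32.0% of 334 cases. These shares are descriptions, and their differences were not tested. Among the 216 lincRNAs with at least 1 FPKM in both arms, 35.2% were higher and 13% lower. In bulk RNA, a fall in a transcript can be fewer cells that make it or less of it per cell, and these cannot be told apart.

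**Figure D1:**
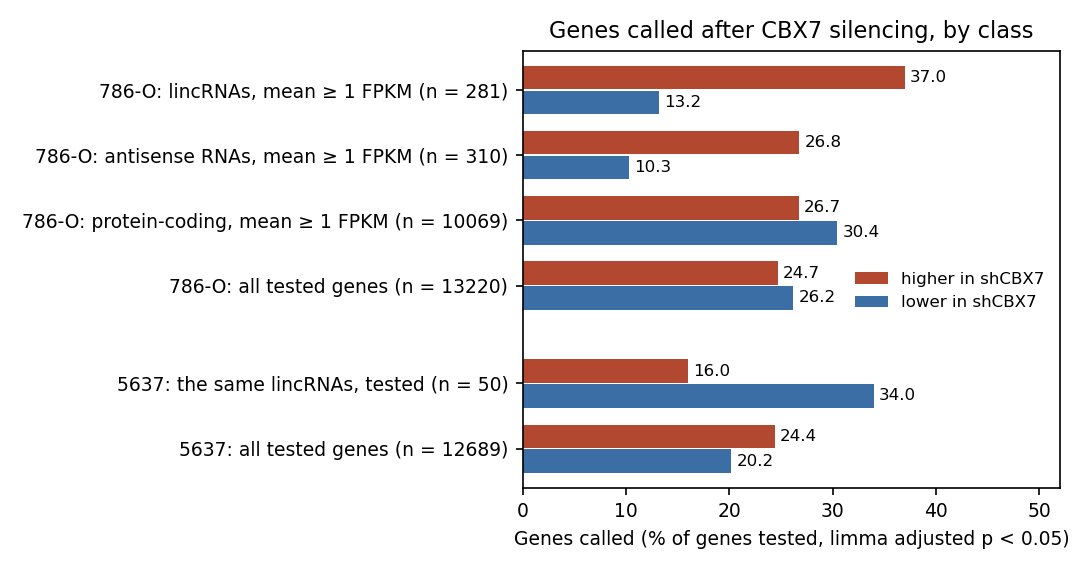
Share of genes called higher (red) or lower (blue) in shCBX7 than in control cells, in percent of the genes tested (x axis), for the expressed lincRNAs and comparison classes in 786-O and for the same lincRNAs and all tested genes in 5637. In 786-O the lincRNA bars are 37.0% higher and 13.2% lower, and in 5637 they are 16.0% higher and 34.0% lower.

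The expressed lincRNAs took a slightly larger part of the 786-O libraries after silencing. Together they held 0.434% to 0.446% of the summed FPKM in the shCBX7 libraries, against 0.378% to 0.391% in the controls. In recovered reads they held 0.228% to 0.233% in the shCBX7 libraries, against 0.194% to 0.202% in the controls, and in both measures the arms did not overlap. The members were mostly low: their median mean level was 2.07 FPKM, 146 reached 2 FPKM, 28 reached 10 FPKM and the highest averaged 63.1 FPKM. They had a median length of 1107 bases (168 to 22767), 61 had single-exon transcripts only, and 149 carried clone names rather than gene names. A member had a median of 54.8 recovered reads per library, and 20 members averaged under 10 reads. Calls were more frequent at higher depth: 31 of 98 members under 30 reads were called, 50 of 92 with 30 to 100 reads and 60 of 91 with over 100 reads. Among the members with over 100 reads, 38 were higher and 22 lower; among those under 30 reads, 25 were higher and 6 lower.

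Larger changes were counted by direction. Of the 281 lincRNAs, 26 rose and 1 fell by 1 or more on the log2(FPKM + 1) scale, beside 3.51% of all tested genes that changed that far, 2.07% upwards and 1.44% downwards. Of these 26 rises, 12 were in lincRNAs whose control arm lay under 1 FPKM, so that they entered through the shCBX7 arm. Among the 216 with at least 1 FPKM in both arms 14 rose and 1 fell that far, beside 1.98% upwards and 1.58% downwards of the tested genes with the same levels. Because of the added 1 FPKM, this scale understates the change of low genes. The arms did not overlap for 144 members, beside 60.3% of all tested genes. Leaving aside the 68 members that overlap another tested gene, 35.2% of the remaining 213 were higher and 12.7% lower. The library kit keeps strand, but how counting treated strand is not stated in the sources at hand, so reads of overlapping genes cannot be told apart.

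AL356234.3, which carries only a clone name, rose most (chr6:137693068-137700415, plus strand, GRCh38). It had 14.1, 11.9 and 13.6 FPKM in the shCBX7 libraries, against 1.19, 1.22 and 1.1 FPKM in the controls. Every shCBX7 library lay above every control, and the mean was 11.3-fold higher (log2 change 2.71, SE 0.072, limma adjusted p = 4.78e-07). The nearest protein-coding gene, 166773 bp away, was TNFAIP3, which encodes the A20 inhibitor of NF-kB signalling. TNFAIP3 had 32.4, 31.1 and 31 FPKM in the shCBX7 libraries, against 12.7, 13.9 and 13 FPKM in the controls, also with no overlap (log2 change 1.2, SE 0.050, limma adjusted p = 3.33e-06).

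LINC01705 (chr1:222041705-222064763, minus strand) was close to absent in control cells. It had 8.07, 8.43 and 8.88 FPKM in the shCBX7 libraries, against 0.853, 0.485 and 0.863 FPKM in the controls. Its 11.5-fold rise rested on 79 to 89 reads in shCBX7 libraries, against 5 to 8 in controls, and the arms were far apart (log2 change 2.46, SE 0.098, limma adjusted p = 2.64e-06). The nearest protein-coding gene was DUSP10, a phosphatase of the stress-activated kinases, at 299529 bp, which had 38, 37.5 and 36.9 FPKM in the shCBX7 libraries, against 15.6, 15.3 and 13.6 FPKM in the controls (log2 change 1.28, SE 0.058, limma adjusted p = 4.68e-06).

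LINC01629 (chr14:76959638-76965802, plus strand) had the highest level among the 10 largest rises. Its values were 29.4, 32.5 and 22.8 FPKM in the shCBX7 libraries, against 5.16, 4.04 and 5.63 FPKM in the controls. All shCBX7 libraries lay at least 4-fold above all controls in FPKM (log2 change 2.29, SE 0.14, limma adjusted p = 1.83e-05). IRF2BPL, the nearest protein-coding gene at 58741 bp, moved the other way (log2 change -0.27, limma adjusted p = 0.0166). LINC01629 overlaps AC007686.4 in the annotation, and reads of the pair cannot be told apart.

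GAPLINC, named for gastric adenocarcinoma, had 6.57, 9.19 and 6.94 FPKM in the shCBX7 libraries, against 1.37, 0.519 and 1.61 FPKM in the controls. The 3 shCBX7 libraries were all above the 3 controls (log2 change 2.01, SE 0.21, limma adjusted p = 0.000183). Its nearest coding gene, the transcriptional repressor TGIF1 at 6272 bp, changed less (log2 change 0.25, limma adjusted p = 0.00258).

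AC021218.1 had 4.99, 4.73 and 5.24 FPKM in the shCBX7 libraries, against 1.16, 0.624 and 0.812 FPKM in the controls. It lies 150359 bp from SHH, the gene of the Sonic hedgehog ligand, and both were higher without overlap of the arms (log2 change 1.69, SE 0.11, limma adjusted p = 1.81e-05). For SHH the values were 8.57, 8.1 and 8.86 FPKM in the shCBX7 libraries, against 3.48, 3.76 and 3.36 FPKM in the controls (log2 change 1.07, SE 0.059, limma adjusted p = 1.05e-05). Close to 0 in control cells were also AC104653.1 (3.9 ± 0.84 FPKM in shCBX7 cells, against 0.56 ± 0.287 FPKM in control cells, SD, n = 3 each) and AL355607.2 (3.41 ± 0.524 FPKM in shCBX7 cells, against 0.42 ± 0.165 FPKM in control cells, SD, n = 3 each). Both rose, by 1.65 and 1.64 on the log2 scale (limma adjusted p = 0.000163 and 3.14e-05). For AC104653.1 the control arm held 3 to 9 reads per library.

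ITGB1-DT, named as the divergent transcript of the integrin gene ITGB1, overlaps that gene in the annotation. It had 21.3, 20.1 and 19.6 FPKM in the shCBX7 libraries, against 7.68, 5.53 and 6.2 FPKM in the controls. The shCBX7 libraries held about 3 times the control level without overlap of the arms (log2 change 1.52, SE 0.10, limma adjusted p = 2.27e-05). ITGB1 itself rose less, at a much higher level (194 ± 4.67 FPKM in shCBX7 cells, against 156 ± 9.77 FPKM in control cells; SD, n = 3 each; log2 change 0.32). AP000569.1 completed the 10 largest rises with 3.66, 1.12 and 2.85 FPKM in the shCBX7 libraries, against 0.405, 0.554 and 0 FPKM in the controls. Its arms did not overlap, but they rested on 11 to 41 reads in shCBX7 libraries, against 0 to 6 in controls (log2 change 1.37, SE 0.30, limma adjusted p = 0.00642).

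The falls were smaller than the rises. LINC01508 (chr9:90300902-90433505, minus strand) fell most, with 2.41, 2.33 and 3.37 FPKM in the shCBX7 libraries, against 7.05, 6.08 and 6.79 FPKM in the controls. The arms were well separated, and this was the 1 called lincRNA that fell by at least 1 on the log2 scale (log2 change -1.05, SE 0.11, limma adjusted p = 0.000203). AC026401.3, a single-exon transcript that overlaps NDE1, the gene of a dynein regulator, had 8.97, 9.66 and 8.4 FPKM in the shCBX7 libraries, against 16, 15.8 and 16.6 FPKM in the controls (log2 change -0.78, SE 0.058, limma adjusted p = 3.87e-05). NDE1 was also lower (log2 change -0.46, limma adjusted p = 0.000386), and reads of the pair cannot be told apart.

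Further falls were seen in AL392172.1 and AC113346.1. AL392172.1 had 5.23, 4.88 and 5.51 FPKM in the shCBX7 libraries, against 10.5, 8.68 and 8.11 FPKM in the controls (log2 change -0.70, SE 0.093, limma adjusted p = 0.00063). AC113346.1 had 4.04, 2.51 and 2.93 FPKM in the shCBX7 libraries, against 5.01, 5.7 and 6.97 FPKM in the controls (log2 change -0.74, SE 0.15, limma adjusted p = 0.00507). In both, all control libraries lay above all shCBX7 libraries. LINC01929 averaged 0.939 ± 0.183 FPKM in shCBX7 cells, against 2.05 ± 0.112 FPKM in control cells, and LINC02593 averaged 0.723 ± 0.0765 FPKM in shCBX7 cells, against 1.6 ± 0.097 FPKM in control cells (SD, n = 3 each). They fell by 0.66 and 0.59 on the log2 scale (limma adjusted p = 0.000673 and 0.000488). LINC02593 lies 2912 bp from SAMD11, which was lower too (log2 change -0.76, limma adjusted p = 0.000705). AC100872.1 had 0.737, 0.599 and 0.672 FPKM in the shCBX7 libraries, against 0.957, 1.63 and 3.27 FPKM in the controls, with 5 to 7 reads in shCBX7 libraries, against 8 to 27 in controls. Its call (log2 change -0.75, SE 0.25, limma adjusted p = 0.0395) was lost under 5 alternatives, among them without any 1 of the shCBX7 libraries or without control library 2, with an adjusted p of up to 0.126.

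**Figure D2:**
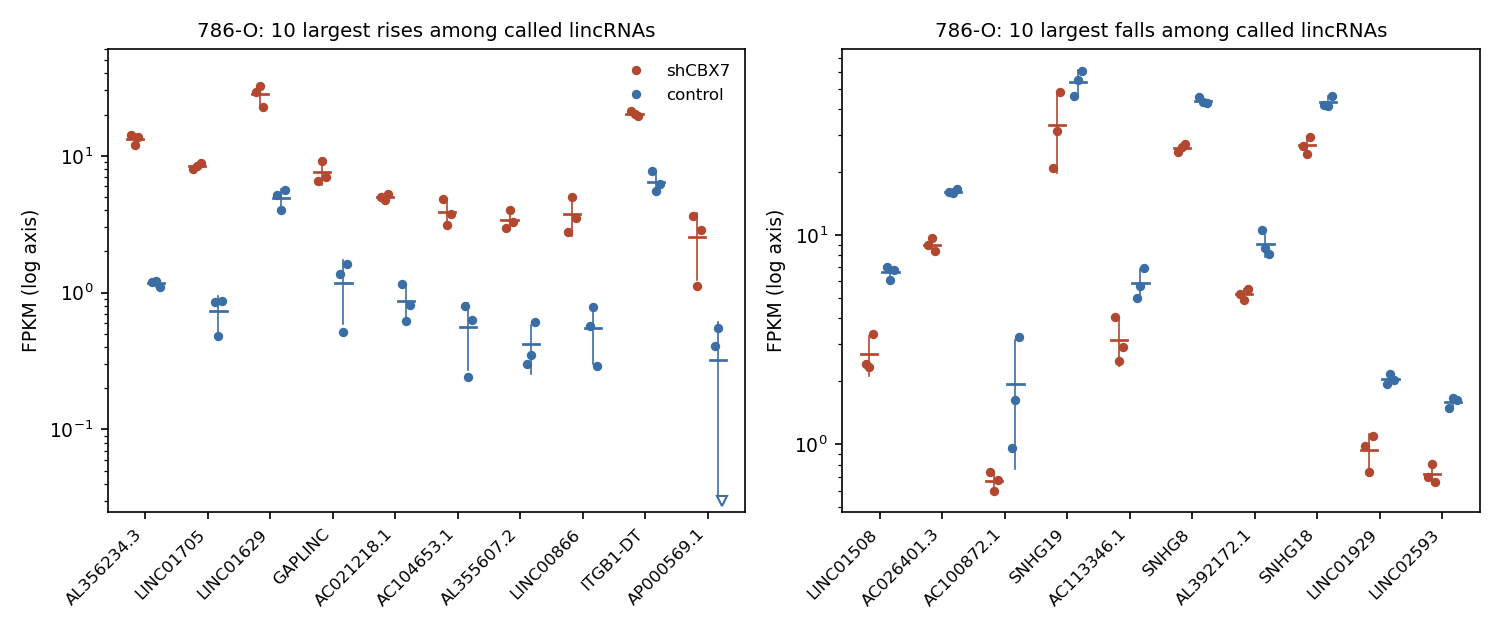
FPKM on a log axis (y) of the 10 called lincRNAs with the largest rise (left) and the 10 with the largest fall (right) in 786-O, with shCBX7 libraries in red and control libraries in blue; points are libraries, horizontal bars means and vertical lines 1 SD (n = 3 each). The open triangle marks a control library of AP000569.1 with 0 FPKM, drawn at the foot of the axis; arms overlap for SNHG19 only.

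The 10 most abundant lincRNAs of 786-O cells moved in both directions. LINC02376 was the highest in control cells, with 51.9, 56.4 and 53.5 FPKM in the shCBX7 libraries, against 79.7, 65.3 and 71.6 FPKM in the controls; it fell, without overlap (log2 change -0.41, SE 0.075, limma adjusted p = 0.00293). AC003092.1 was the highest in shCBX7 cells, with 61.9, 75.4 and 65.1 FPKM in the shCBX7 libraries, against 47.1, 55.7 and 54 FPKM in the controls; it rose, also without overlap (log2 change 0.36, SE 0.090, limma adjusted p = 0.012). The order of the top pair was thus LINC02376 above AC003092.1 in every control library and below it in every shCBX7 library. FPKM is a level per length, so these levels can be set side by side.

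BX640514.2 had the clearest change among the abundant lincRNAs. It had 29.2, 30.2 and 29.9 FPKM in the shCBX7 libraries, against 16.4, 15.5 and 16.3 FPKM in the controls, a 1.85-fold difference with little spread within either arm (log2 change 0.85, SE 0.044, limma adjusted p = 8.04e-06). Its nearest coding gene, the organic anion transporter gene SLCO4A1 at 39330 bp, was also higher (log2 change 0.64, limma adjusted p = 0.000144). AC027031.2 rose (42.1 ± 0.816 FPKM in shCBX7 cells, against 32.3 ± 2.72 FPKM in control cells; SD, n = 3 each; log2 change 0.37, SE 0.065, limma adjusted p = 0.00227). LINC00973 averaged 39.8 ± 1.58 FPKM in shCBX7 cells, against 35.1 ± 2.18 FPKM in control cells (SD, n = 3 each). Its call as higher (log2 change 0.18, SE 0.058, limma adjusted p = 0.0353) was lost under 9 alternatives, among them without any 1 library other than control library 2, with an adjusted p of up to 0.121. AC004816.1 (0.13) and LINC01116 (-0.15) did not pass the test, each with a limma adjusted p of 0.0807; LINC01116 passed it without shCBX7 library 2 (limma adjusted p = 0.0457).

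The snoRNA hosts among the members, 7 of the 31 listed, were lower or did not pass the test. SnoRNAs guide chemical modification of ribosomal RNA, and the spliced exons of their host genes are what these FPKM values mainly count. Of 7 members in this list, 5 fell and none rose (limma and a voom fit alike, and none higher at an unadjusted p under 0.05), with a median log2 change of -0.41, beside 26.2% lower and 24.7% higher over all tested genes. SNHG8 had 25.1, 26.3 and 27.2 FPKM in the shCBX7 libraries, against 45.6, 43.3 and 42.6 FPKM in the controls, so that all shCBX7 libraries lay far below all controls (log2 change -0.72, SE 0.050, limma adjusted p = 2.73e-05). SNHG18 had 26.8, 24.5 and 29.4 FPKM in the shCBX7 libraries, against 42, 41.6 and 46.4 FPKM in the controls, again without overlap (log2 change -0.67, SE 0.076, limma adjusted p = 0.000274). SNHG4 (0.979 ± 0.0762 FPKM in shCBX7 cells, against 1.64 ± 0.183 FPKM in control cells; log2 change -0.41, SE 0.080, limma adjusted p = 0.00401) and SNHG15 (7.04 ± 0.318 FPKM in shCBX7 cells, against 8.4 ± 0.276 FPKM in control cells; log2 change -0.23, SE 0.053, limma adjusted p = 0.00975) fell as well (SD, n = 3 each).

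SNHG19 was the most variable host. Its values were 21, 31.4 and 48.4 FPKM in the shCBX7 libraries, against 46.4, 55.2 and 60.8 FPKM in the controls. The highest shCBX7 library lay above the lowest control, so the arms overlapped. The call (log2 change -0.74, SE 0.26, limma adjusted p = 0.0486) was lost under 9 alternatives, among them without any 1 library other than shCBX7 library 3, with an adjusted p of up to 0.147. EPB41L4A-AS1 (4.55 ± 0.41 FPKM in shCBX7 cells, against 4.74 ± 0.231 FPKM in control cells) and SNHG9 (2.62 ± 0.526 FPKM in shCBX7 cells, against 3.21 ± 1.23 FPKM in control cells) did not pass the test (SD, n = 3 each; log2 changes -0.048 and -0.19, limma adjusted p = 0.592 and 0.482).

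MicroRNA host lincRNAs changed in both directions. Mature microRNAs of the RefSeq table lay on the same strand inside 11 members. The entries used did not cover every chromosome, so 11 is a minimum and other members may be hosts too. Of these 11 hosts 3 rose and 2 fell, beside 24.7% higher and 26.2% lower over all tested genes and 37.0% and 13.2% over the members. Hosts that were not counted could change these counts, so no share is read from them. The 8 mature microRNAs of the table in the 3 hosts that rose are shown, from RefSeq (GRCh38.p14), written 5′ to 3′ with the seed (bases 2 to 8) in capitals, since the seed decides which messages a microRNA can pair with. The series measured host transcripts and not mature microRNAs.
hsa-miR-155-5p (in MIR155HG): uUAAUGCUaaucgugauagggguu
hsa-miR-155-3p (in MIR155HG): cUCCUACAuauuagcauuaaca
hsa-miR-146a-5p (in MIR3142HG): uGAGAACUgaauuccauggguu
hsa-miR-146a-3p (in MIR3142HG): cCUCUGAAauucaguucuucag
hsa-miR-3142 (in MIR3142HG): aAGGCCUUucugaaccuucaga
hsa-miR-221-3p (in MIR222HG): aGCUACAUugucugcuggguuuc
hsa-miR-222-3p (in MIR222HG): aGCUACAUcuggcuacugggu
hsa-miR-222-5p (in MIR222HG): cUCAGUAGccaguguagauccu

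MIR155HG (chr21:25561909-25575168, plus strand), the host of the immune-activation microRNA miR-155, had 24.6, 28.9 and 27.1 FPKM in the shCBX7 libraries, against 11.1, 12.1 and 11.2 FPKM in the controls. Each shCBX7 library held at least 2 times the level of any control (log2 change 1.16, SE 0.068, limma adjusted p = 1.33e-05). MIR3142HG (chr5:160438594-160487426, plus strand) holds miR-146a, a microRNA induced by NF-kB that dampens Toll-like receptor signalling, and had 20.1, 21.4 and 18.2 FPKM in the shCBX7 libraries, against 7.96, 8.24 and 8.08 FPKM in the controls. Its arms were likewise far apart (log2 change 1.2, SE 0.065, limma adjusted p = 9.61e-06). MIR222HG (chrX:45745211-45770274, minus strand) holds miR-221 and miR-222, whose 3p forms share the seed GCUACAU and are known to target the cell cycle inhibitor CDKN1B. It had 8.69, 7.97 and 6.75 FPKM in the shCBX7 libraries, against 4.04, 4.31 and 3.87 FPKM in the controls, with no overlap (log2 change 0.79, SE 0.087, limma adjusted p = 0.00025). The 8 sequences held 7 different seeds, and this was the 1 shared seed.

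Of the hosts counted, MIR503HG and AL139158.2 were called lower. The miR-503 host had 16.5, 16.4 and 17 FPKM in the shCBX7 libraries, against 19.6, 17.4 and 20.8 FPKM in the controls. Though the arms did not overlap, the call (log2 change -0.20, SE 0.067, limma adjusted p = 0.0405) was lost under 10 alternatives, among them without any 1 library other than control library 2, with an adjusted p of up to 0.134. AL139158.2, a host of miR-3659 outside the literature list, had 0.617, 1.05 and 0.656 FPKM in the shCBX7 libraries, against 1.93, 1.36 and 1.42 FPKM in the controls (log2 change -0.53, SE 0.13, limma adjusted p = 0.00987). Of the 8 members in the literature list of microRNA hosts, 3 rose and 1 fell, with a median log2 change of 0.15, beside 24.7% higher and 26.2% lower over all tested genes and 37.0% and 13.2% over the members. MIR22HG (0.17), MIR210HG (0.12), MIR4435-2HG (0.13) and MIRLET7BHG (0.14) did not pass the test. MIR22HG passed it without control library 3 (limma adjusted p = 0.0435).

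**Figure D3:**
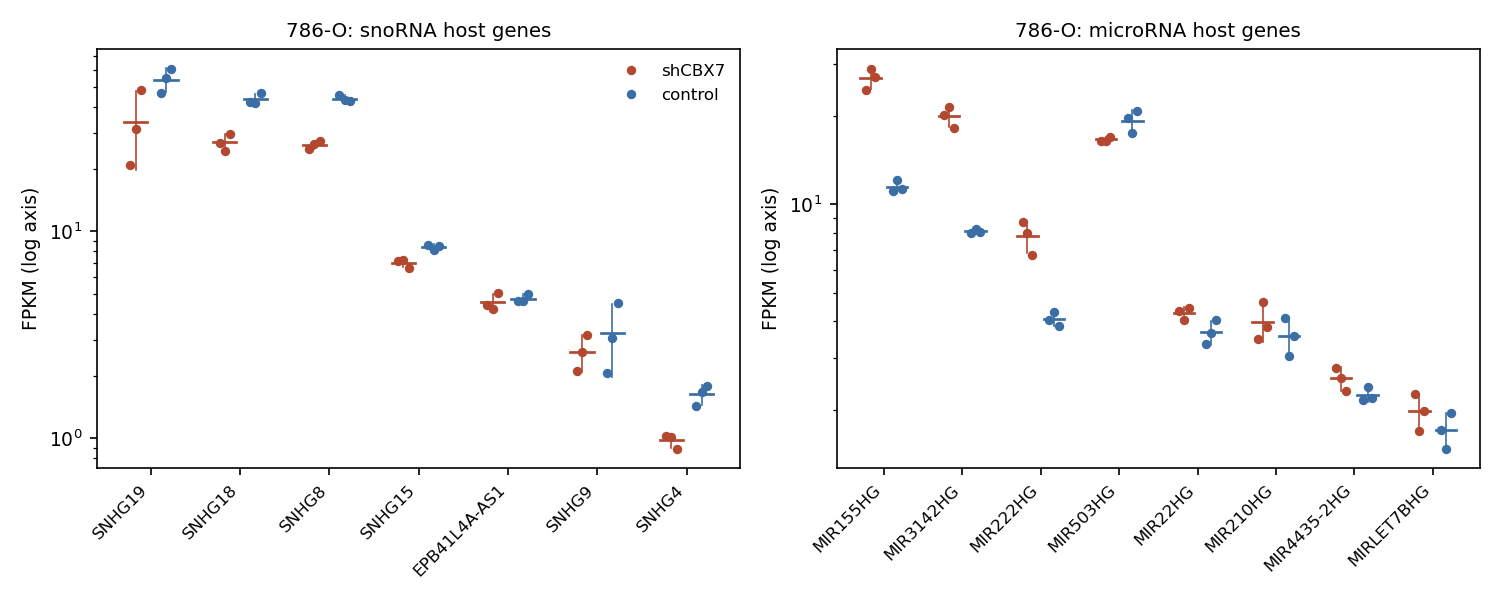
FPKM on a log axis (y) of the 7 snoRNA host genes (left) and the 8 microRNA host genes of the literature lists (right) in 786-O, with shCBX7 libraries in red and control libraries in blue; points are libraries, horizontal bars means and vertical lines 1 SD (n = 3 each). SNHG8 and SNHG18 lie lower in all shCBX7 libraries, and MIR155HG, MIR3142HG and MIR222HG lie higher in all of them.

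Lists of lincRNAs tied to a pathway in the literature gave small counts. Members made up 6 of 17 listed RNAs for interferon or NF-kB, 4 of 14 for p53, 5 of 14 for hypoxia and 4 of 17 for Polycomb. In 786-O the counts stand beside 24.7% higher and 26.2% lower over all tested genes and 37.0% and 13.2% over the members. Of 6 members tied to interferon or NF-kB, 3 rose (all tested genes, 24.7% higher) and none fell by limma or by voom, and 4 were higher and 0 lower at an unadjusted p under 0.05. The 3 that rose were the miR-155 and miR-146a hosts and BISPR, which is induced by interferon and transcribed away from BST2, the tetherin gene. BISPR had 2.27, 2.48 and 2.17 FPKM in the shCBX7 libraries, against 1.04, 0.878 and 0.637 FPKM in the controls (log2 change 0.84, SE 0.097, limma adjusted p = 0.000298). Its control arm lay under 1 FPKM, so BISPR entered the members, and this count, through the shCBX7 arm where it is high. BST2 had 1031, 1034 and 1067 FPKM in the shCBX7 libraries, against 480.5, 401 and 420.3 FPKM in the controls (log2 change 1.27, SE 0.069, limma adjusted p = 1.03e-05). Both genes of that pair were thus higher in every shCBX7 library than in any control. NEAT1 (-0.093), MIR22HG and PSMB8-AS1 (0.33) did not pass the test.

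Of 4 members tied to p53, 3 rose (all tested genes, 24.7% higher) and none fell, by limma, by voom and at an unadjusted p under 0.05 alike. NORAD, which binds Pumilio proteins and guards chromosome number, had 14.4, 14.4 and 15.6 FPKM in the shCBX7 libraries, against 10.3, 11.8 and 12.1 FPKM in the controls. TP53TG1, a p53-induced transcript, had 7.16, 6.04 and 5.48 FPKM in the shCBX7 libraries, against 4.74, 4.37 and 4.38 FPKM in the controls. PVT1, the neighbour of MYC, had 4.36, 4.41 and 4.36 FPKM in the shCBX7 libraries, against 3.02, 3.74 and 3.06 FPKM in the controls. None of the 3 had overlapping arms, and their log2 changes were 0.35 (limma adjusted p = 0.00458), 0.39 (limma adjusted p = 0.00808) and 0.34 (limma adjusted p = 0.00763). MYC, 53099 bp from PVT1, was also higher (log2 change 0.48, SE 0.046, limma adjusted p = 0.000121). The microRNA entries used above held none from the chromosome of this pair. PVT1, which rose, was therefore not examined as a microRNA host.

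Of 5 members tied to hypoxia, none passed the limma or the voom test and none had an unadjusted p under 0.05 in 786-O. That line is known to lack functional VHL, the factor that degrades hypoxia-inducible factors. The part of VHL in this result was not tested. MIR210HG, the host of the hypoxia-induced miR-210, had 3.5, 4.65 and 3.82 FPKM in the shCBX7 libraries, against 4.1, 3.06 and 3.58 FPKM in the controls, with overlapping arms (limma adjusted p = 0.388). Of 4 members tied to Polycomb complexes, 2 rose (all tested genes, 24.7% higher) and none fell by limma or by voom; 1, LINC01116, was lower at an unadjusted p under 0.05. The 2 that rose were PVT1 and CRNDE, which is raised in colorectal tumours and had 5.46, 5.66 and 5.36 FPKM in the shCBX7 libraries, against 4.22, 3.85 and 3.97 FPKM in the controls (log2 change 0.37, SE 0.054, limma adjusted p = 0.0010). Of 4 cytoplasmic regulators, NORAD, CRNDE and LINC00662 rose; the LINC00662 call (log2 change 0.20, SE 0.063, limma adjusted p = 0.0279) was lost under 5 alternatives, among them without shCBX7 library 1 or 2 or without control library 1 or 3, with an adjusted p of up to 0.0966.

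The nuclear body RNAs NEAT1 and MALAT1, scaffolds of paraspeckles and components of nuclear speckles, did not pass the limma or the voom test in 786-O, nor had either an unadjusted p under 0.05. NEAT1 had 3.65, 4.05 and 3.94 FPKM in the shCBX7 libraries, against 3.91, 4.34 and 4.37 FPKM in the controls, with overlapping arms (limma adjusted p = 0.252). MALAT1 had 4.29, 5.18 and 4.65 FPKM in the shCBX7 libraries, against 4.55, 5.86 and 6.27 FPKM in the controls, also with overlap (limma adjusted p = 0.177). Without control library 1, MALAT1 passed the test as lower (limma adjusted p = 0.0183).

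Changes of lincRNAs were set beside those of the protein-coding genes next to them. Divergent pairs, whose starts lie within 1000 bp on opposite strands, often share 1 promoter region. Of 60 such pairs with both genes tested in 786-O, 37 changed with the same sign, and the log2 changes correlated at r = 0.59 and rho = 0.47 across pairs. In 13 pairs both genes were called, 8 with both higher, 2 with both lower and 3 with opposite signs. For the 94 nearest coding genes within 100000 bp that neither overlap nor diverge, 50 had the same sign and r was 0.14. Pairs share libraries and some share reads, so these are descriptions across genes.

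LINC00866 and GOLGA7B, the gene of a golgin-family protein, made up the divergent pair with the largest rise of both genes. LINC00866 had 2.77, 5.02 and 3.49 FPKM in the shCBX7 libraries, against 0.573, 0.783 and 0.29 FPKM in the controls (log2 change 1.61, SE 0.19, limma adjusted p = 0.000309). GOLGA7B had 8.26, 7.9 and 8.5 FPKM in the shCBX7 libraries, against 2.88, 2.22 and 2.5 FPKM in the controls (log2 change 1.39, SE 0.076, limma adjusted p = 1.04e-05). Neither gene's arms overlapped. SNHG18 and SEMA5A, which encodes a semaphorin of axon guidance, made up the pair with the largest fall of both genes. SEMA5A had 1.84, 2.07 and 1.95 FPKM in the shCBX7 libraries, against 8.5, 8.91 and 9.24 FPKM in the controls (log2 change -1.74, SE 0.058, limma adjusted p = 1.33e-06), a larger fall on the log2 scale than the -0.67 of SNHG18.

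Opposite signs were seen for URB1-AS1 (0.54) with URB1 (-0.58), AC025181.2 (0.56) with GOLPH3 (-0.18) and FLVCR1-DT (0.43) with FLVCR1 (-0.35), where values are log2 changes and the lincRNA was higher each time. These pairs, and OLMALINC, were chosen after their values were seen. OLMALINC, 8679 bp from the fatty acid desaturase gene SCD, had 0.924, 0.757 and 1.01 FPKM in the shCBX7 libraries, against 1.58, 1.6 and 1.66 FPKM in the controls (log2 change -0.46, SE 0.078, limma adjusted p = 0.00192). SCD had 22.8, 21.8 and 23.4 FPKM in the shCBX7 libraries, against 108, 114 and 113 FPKM in the controls, a larger fall, and in both genes all shCBX7 libraries lay below all controls (log2 change -2.25, SE 0.046, limma adjusted p = 2.25e-07).

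**Figure D4:**
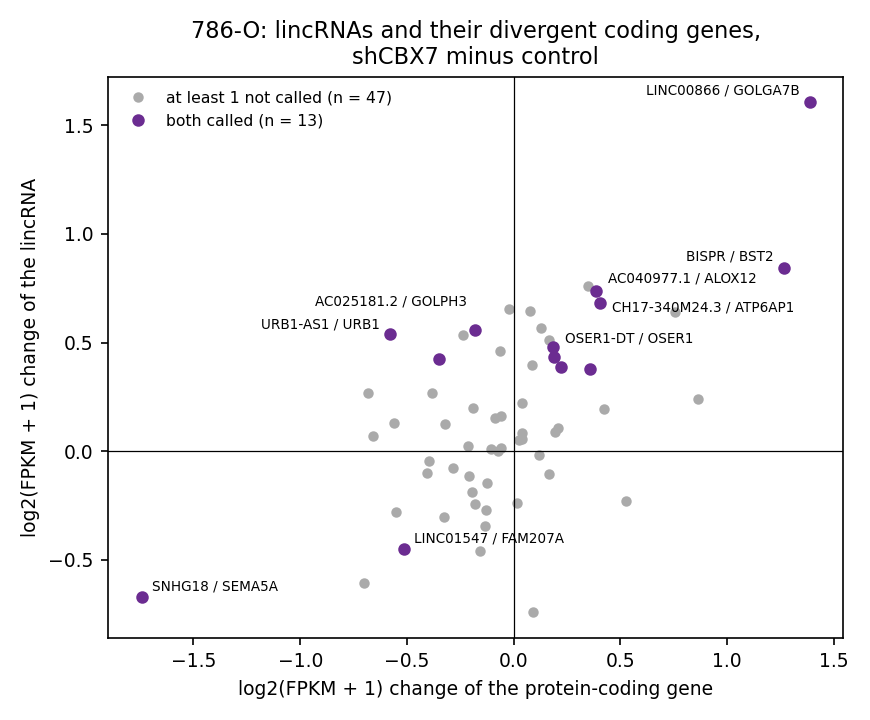
Log2(FPKM + 1) change, shCBX7 minus control in 786-O, of each lincRNA (y axis) against that of the protein-coding gene transcribed away from it (x axis), for 60 pairs; purple points are the 13 pairs in which both genes were called. LINC00866 with GOLGA7B and BISPR with BST2 lie at the upper right, SNHG18 with SEMA5A at the lower left.

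In 5637, more of the same lincRNAs were lower than higher. Of the 81 found by symbol, 9 were listed at 0 in every library and 50 reached the mean of 0.5 FPKM needed for the test. Of these 50, 25 were called, 8 higher (16.0%) and 17 lower (34.0%), beside 44.5% called over all 12689 genes tested, 24.4% higher and 20.2% lower. The median log2 change was -0.03, beside 0.01 over all tested genes. None changed 2-fold on the log2(FPKM + 1) scale, as did 0.102% of all tested genes upwards and 0.0946% downwards. The arms did not overlap for 26 of the 50, beside 56.4% of all tested genes. The same 50 lincRNAs were higher in 26 and lower in 8 cases in 786-O.

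Among the rises in 5637, LINC01629 was the largest, as it was the third largest in the other line. It had 1.74, 0.939 and 1.06 FPKM in the shCBX7 libraries, against 0.391, 0.238 and 0.565 FPKM in the controls. The arms did not overlap, at levels far below those in 786-O (log2 change 0.67, SE 0.14, limma adjusted p = 0.00859). They rested on 16 to 20 recovered reads in shCBX7 libraries, against 4 to 10 in controls. LINC01410 had 5.42, 5.69 and 5.49 FPKM in the shCBX7 libraries, against 3.71, 3.2 and 3.4 FPKM in the controls (log2 change 0.56, SE 0.046, limma adjusted p = 0.000188). LINC00460 had 7.85, 8.02 and 7.31 FPKM in the shCBX7 libraries, against 5.83, 5.74 and 5.27 FPKM in the controls (log2 change 0.40, SE 0.045, limma adjusted p = 0.000638). MYOSLID, known as a lincRNA of smooth muscle differentiation, had 15.6, 17.7 and 16.7 FPKM in the shCBX7 libraries, against 12.6, 11.9 and 12.8 FPKM in the controls (log2 change 0.39, SE 0.047, limma adjusted p = 0.000751). In all of these each shCBX7 library lay above each control. LINC01411 and LINC00662 also rose, by 0.34 (limma adjusted p = 0.00422) and 0.23 (limma adjusted p = 0.0038) on the log2 scale.

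Falls in 5637 included RNAs of high level and known function. NORAD, the highest of these lincRNAs in 5637, had 241, 238 and 242 FPKM in the shCBX7 libraries, against 276, 279 and 272 FPKM in the controls. The spread within each arm was small and the arms were apart (log2 change -0.20, SE 0.019, limma adjusted p = 0.000379). NEAT1 had 14.2, 13.3 and 13.5 FPKM in the shCBX7 libraries, against 16.7, 16.7 and 24.3 FPKM in the controls (log2 change -0.44, SE 0.13, limma adjusted p = 0.0304). The arms did not overlap, though control library 3 stood above the other controls, and the call was lost under 4 alternatives, among them without any 1 of the shCBX7 libraries, with an adjusted p of up to 0.0855. MALAT1 had 3.62, 3.48 and 3.9 FPKM in the shCBX7 libraries, against 4.0, 4.36 and 5.25 FPKM in the controls (log2 change -0.24, SE 0.081, limma adjusted p = 0.0471). Its call was lost under 7 alternatives, among them without any 1 library other than control library 1, with an adjusted p of up to 0.129.

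CRNDE had 2.68, 3.18 and 2.95 FPKM in the shCBX7 libraries, against 3.99, 3.91 and 3.99 FPKM in the controls in 5637 (log2 change -0.34, SE 0.049, limma adjusted p = 0.00179). ZNF674-AS1 had 4.52, 4.39 and 4.83 FPKM in the shCBX7 libraries, against 6.12, 6.0 and 5.69 FPKM in the controls (log2 change -0.31, SE 0.040, limma adjusted p = 0.00104). LINC01504 averaged 0.495 ± 0.0322 FPKM in shCBX7 cells, against 0.871 ± 0.186 FPKM in control cells (SD, n = 3 each; log2 change -0.32, SE 0.080, limma adjusted p = 0.0156). For these lincRNAs every shCBX7 library was below every control. LINC02004 fell most in 5637 and was also low in level, with 1.03, 1.04 and 0.627 FPKM in the shCBX7 libraries, against 1.85, 1.88 and 1.23 FPKM in the controls (log2 change -0.48, SE 0.13, limma adjusted p = 0.0205). That call was lost under 5 alternatives, among them without shCBX7 library 3 or control library 1 or 2, with an adjusted p of up to 0.0651. By list, 3 of 4 tested members tied to hypoxia, 3 of 4 tied to p53 and 3 of 3 tied to Polycomb complexes were lower in 5637, beside 20.2% of all tested genes and 34.0% of the members, and none was higher by limma, by voom or at an unadjusted p under 0.05. The lists share members, and NEAT1, MALAT1, PVT1, CRNDE, NORAD and CYTOR made up all of those falls. The remaining lists held rises too, beside 24.4% higher over all tested genes and 16.0% over the members. Of 3 tested members tied to interferon or NF-kB 1 rose and 1 fell, and of 5 microRNA hosts 1 rose and 1 fell. Of 4 cytoplasmic regulators 1 rose and 3 fell. Without a rise, 2 of 2 nuclear body RNAs and 1 of 3 snoRNA hosts fell.

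Both lines called 15 lincRNAs (30%) of the 50 tested in both, near the 26.9% of all 10354 genes tested in both. Of these, 8 were higher in both lines, 2 were lower in both (SNHG19 and LINC02004) and 5 were higher in 786-O and lower in 5637; none was lower in 786-O and higher in 5637. Over all genes the shares were 8.41% higher in both, 6.26% lower in both, 4.7% higher in 786-O and lower in 5637, and 7.52% the reverse. The 8 shared rises were LINC01629, LINC01410, LINC00460, MYOSLID, LINC01411, LINC00662, MIR155HG and LINC00467. MYOSLID had 1.45, 1.59 and 1.68 FPKM in the shCBX7 libraries, against 1.09, 1.04 and 0.906 FPKM in the controls in 786-O (log2 change 0.35, SE 0.076, limma adjusted p = 0.00628); the 786-O call was lost with a voom fit on recovered reads (adjusted p = 0.0812). LINC01410 had 1.72, 1.7 and 1.5 FPKM in the shCBX7 libraries, against 0.71, 0.808 and 1.08 FPKM in the controls in 786-O (log2 change 0.50, SE 0.094, limma adjusted p = 0.00319). LINC00460 had 1.38, 1.32 and 1.07 FPKM in the shCBX7 libraries, against 0.764, 0.709 and 0.787 FPKM in the controls in 786-O (log2 change 0.36, SE 0.083, limma adjusted p = 0.00821). Neither lincRNA had overlapping arms in either line. In 786-O the control arms of LINC01410 and LINC00460 lay under 1 FPKM, so these lincRNAs entered the members through the shCBX7 arm. The tables were normalized separately, so levels are compared between lines only roughly.

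SNHG19 had 15.2, 13.2 and 16.7 FPKM in the shCBX7 libraries, against 19.1, 22.8 and 18 FPKM in the controls in 5637, without overlap (log2 change -0.38, SE 0.10, limma adjusted p = 0.0192). The 5637 call was lost without shCBX7 library 2, without a filter on low values and with a block on column numbers, with an adjusted p of up to 0.0587. LINC02004 had 0.897, 1.43 and 1.34 FPKM in the shCBX7 libraries, against 2.04, 3.15 and 1.85 FPKM in the controls in 786-O (log2 change -0.58, SE 0.16, limma adjusted p = 0.0179), from 5 to 7 reads in shCBX7 libraries, against 9 to 17 in controls. Its 786-O call was lost under 3 alternatives, among them without shCBX7 library 1, with an adjusted p of up to 0.133. SNHG8 did not pass the test in 5637, where it had 27, 24.1 and 25.3 FPKM in the shCBX7 libraries, against 21.8, 27.6 and 26 FPKM in the controls, with overlapping arms (limma adjusted p = 0.826).

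**Figure D5:**
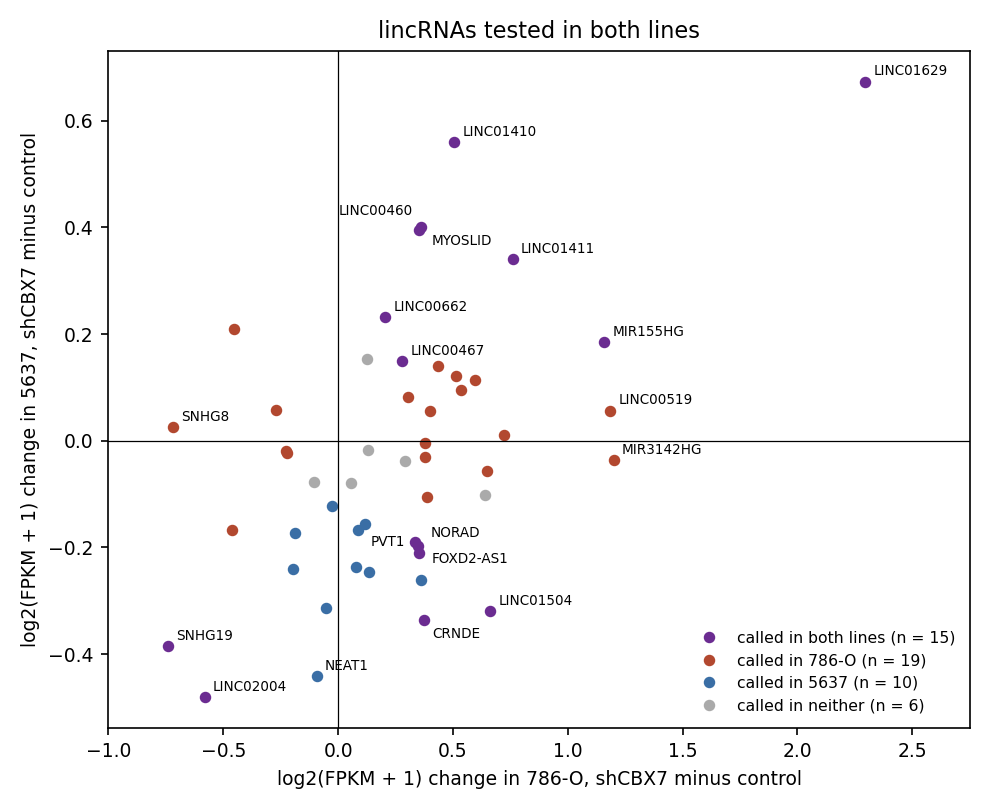
Log2(FPKM + 1) change, shCBX7 minus control, in 786-O (x axis) and in 5637 (y axis) of the 50 lincRNAs tested in both lines, coloured by the line in which they were called. LINC01629 lies at the upper right, SNHG19 and LINC02004 at the lower left, and CRNDE, LINC01504, FOXD2-AS1, NORAD and PVT1 at the lower right.

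The difference between the lines was tested directly, with line by silencing as an interaction in limma across the 12 libraries (786-O change minus 5637 change). Of the 81 lincRNAs found in both lines, 45 were called, 34 with a higher change in 786-O and 11 with a lower one. Over all 12777 genes in that fit 53.3% were called, 24.3% higher and 29.0% lower. Of the 31 lincRNAs with a mean under 0.5 FPKM in 5637, 17 were among the 45. For those, a difference shows a change in 786-O beside a low listed value in 5637. Such a value need not mean absence, since how genes were counted for each line is not stated. The coding gene NDE1, for example, averaged 0.014 FPKM in 5637 controls, against 11.7 FPKM in 786-O controls. Among the 50 tested in each line, 28 were called, 23 higher and 5 lower.

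The 5 lincRNAs that rose in 786-O and fell in 5637 all passed this test. Their opposite calls in the same libraries made that outcome likely, so it adds no separate evidence. CRNDE differed by 0.71 on the log2 scale (SE 0.068, limma adjusted p = 5.15e-06). NORAD differed by 0.54 (limma adjusted p = 6.92e-05), PVT1 by 0.52 (limma adjusted p = 0.000261), FOXD2-AS1 by 0.56 (limma adjusted p = 0.00134) and LINC01504 by 0.98 (limma adjusted p = 0.00186). LINC01504 had 3.2, 1.88 and 1.71 FPKM in the shCBX7 libraries, against 0.829, 1.33 and 0.937 FPKM in the controls in 786-O, and its call there (log2 change 0.66, SE 0.18, limma adjusted p = 0.0156) was lost without a filter on low values (adjusted p = 0.0614).

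MIR3142HG was expressed at similar FPKM in control cells of both lines and was called as changed in 1 of them. In 5637 it had 7.03, 7.52 and 7.79 FPKM in the shCBX7 libraries, against 7.52, 8.05 and 7.42 FPKM in the controls, with overlapping arms (limma adjusted p = 0.526; line difference 1.24, SE 0.079, limma adjusted p = 2.13e-07). MIR155HG had 3.48, 4.11 and 4.15 FPKM in the shCBX7 libraries, against 3.21, 3.29 and 3.45 FPKM in the controls in 5637, a small rise without overlap (log2 change 0.18, SE 0.059, limma adjusted p = 0.0391). That 5637 call was lost under 7 alternatives, among them without shCBX7 library 2 or 3 or without any 1 control library, with an adjusted p of up to 0.117, and the change was smaller than in 786-O (line difference 0.97, SE 0.093, limma adjusted p = 5.13e-06). LINC01629 differed as well (line difference 1.62, SE 0.22, limma adjusted p = 9.03e-05). So did LINC00519 (line difference 1.13, SE 0.17, limma adjusted p = 0.000162), which had 4.95, 3.61 and 3.54 FPKM in the shCBX7 libraries, against 1.14, 1.12 and 1.33 FPKM in the controls in 786-O and averaged 0.561 ± 0.213 FPKM in shCBX7 cells, against 0.495 ± 0.126 FPKM in control cells in 5637 (SD, n = 3 each).

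GAPLINC had the largest difference between the lines (line difference 2.08, SE 0.24, limma adjusted p = 2.21e-05), but in 5637 it was listed at 0 in every shCBX7 library and did not exceed 0.13 FPKM in a control library. The largest differences in the other direction were those of LINC01508 (line difference -1.04, SE 0.12, limma adjusted p = 2.95e-05), at or near 0 in 5637, and SNHG8 (line difference -0.75, SE 0.10, limma adjusted p = 9.73e-05), which was well expressed in both lines.

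Promoter sequences were at hand for 87 of the 281 lincRNAs, matched by symbol to RefSeq windows from 250 bases before to 50 bases after a gene's start; for 70 of them that start lay within 500 bp of the start in the authors' annotation. The AP-1 consensus TGANTCA, searched on both strands, was found in 11 of 38 windows of lincRNAs higher in 786-O (28.9%), 3 of 15 of those lower (20.0%) and 2 of 34 of those not called (5.88%). Among the 87 windows 16 held it (18.4%), and among all 27305 RefSeq windows of that length 7.76% did. Among the 70 windows with a start within 500 bp, 9 of 31 higher, 2 of 13 lower and 0 of 26 not called held it. Of 6 windows of lincRNAs higher in both lines, 5 held the AP-1 consensus, as did 2 of 14 windows of those lower in 5637. Among these 5 is LINC00460, which entered the members through the shCBX7 arm. The NF-kB motif (GGG, any 2 bases, then TTTCC) was found in 4 of the 87 windows (all windows, 1.92%). By call in 786-O these were 1 of 38 higher, 0 of 15 lower and 3 of 34 not called. With a start within 500 bp they were 0 of 31 higher, 0 of 13 lower and 2 of 26 not called. The 1 match among those higher is in the MIR3142HG window, whose start lies 29657 bp from the annotated start. The interferon element (GAAA on either side of any 2 bases) was found in 7 of the 87 (all windows, 3.65%). By call these were 4 of 38 higher, 1 of 15 lower and 2 of 34 not called, and with a start within 500 bp 4 of 31, 1 of 13 and 2 of 26. No matches of different motifs overlapped. These are matches of letters, not measured binding sites, and a window without a match shows only that these letters are not in it.

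Of the 5 windows with a match among lincRNAs higher in both lines, the 4 whose RefSeq start lies within 500 bp of the annotated start are shown, since they carry the matches behind that count. They are from RefSeq (GRCh38.p14), 5′ to 3′ on the strand of the lincRNA, with AP-1 matches in capitals and, in MIR155HG, also the interferon element match.
LINC01629 (chr14:76959388-76959687, plus strand): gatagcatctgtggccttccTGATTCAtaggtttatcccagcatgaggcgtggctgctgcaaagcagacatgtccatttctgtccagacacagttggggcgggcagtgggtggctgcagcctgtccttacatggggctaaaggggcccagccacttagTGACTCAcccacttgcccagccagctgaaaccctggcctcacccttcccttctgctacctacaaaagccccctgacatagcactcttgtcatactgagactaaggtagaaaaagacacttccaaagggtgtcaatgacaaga
MIR155HG (chr21:25561895-25562194, plus strand): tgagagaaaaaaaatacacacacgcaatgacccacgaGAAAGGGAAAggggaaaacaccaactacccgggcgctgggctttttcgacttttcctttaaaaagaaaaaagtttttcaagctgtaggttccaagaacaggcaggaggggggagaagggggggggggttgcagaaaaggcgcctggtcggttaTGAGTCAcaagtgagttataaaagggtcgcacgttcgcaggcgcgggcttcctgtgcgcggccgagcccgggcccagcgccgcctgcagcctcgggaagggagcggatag
LINC01411 (chr5:174336104-174336403, plus strand): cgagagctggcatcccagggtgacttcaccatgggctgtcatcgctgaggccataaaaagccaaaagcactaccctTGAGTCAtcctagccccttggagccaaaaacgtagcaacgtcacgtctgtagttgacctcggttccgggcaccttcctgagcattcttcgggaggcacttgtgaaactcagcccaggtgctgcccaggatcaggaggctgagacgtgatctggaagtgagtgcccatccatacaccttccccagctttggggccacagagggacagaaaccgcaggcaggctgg
MYOSLID (chr2:207239561-207239860, plus strand): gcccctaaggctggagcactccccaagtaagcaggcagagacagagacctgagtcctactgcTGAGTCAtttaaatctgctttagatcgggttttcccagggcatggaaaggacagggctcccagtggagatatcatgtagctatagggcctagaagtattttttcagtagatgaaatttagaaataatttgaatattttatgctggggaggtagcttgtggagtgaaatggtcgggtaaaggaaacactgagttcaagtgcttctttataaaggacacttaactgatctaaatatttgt

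The LINC01629 window holds 2 AP-1 matches and the other windows shown 1 each. Beside these windows stand log2 changes in 786-O of 2.29 for LINC01629, 1.16 for MIR155HG, 0.76 for LINC01411 and 0.35 for MYOSLID. MANCR, a lincRNA tied to mitosis and genome stability that was chosen after its values were seen, also has a window with 2 matches. It had 12.1, 11.6 and 10.3 FPKM in the shCBX7 libraries, against 4.21, 4.15 and 3.41 FPKM in the controls, with the shCBX7 arm well above the control arm (log2 change 1.33, SE 0.087, limma adjusted p = 2.13e-05). Matches were found as well in windows of lincRNAs that were lower, such as LINC01929 and OLMALINC.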

How the data were processed

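RNA-seq libraries of shCBX7 and control 786-O and 5637 cells were analysed from the authors' tables. Per the file headers, the deposited values are FPKM, with a table for each line. Neither aligner nor counter is named in the sources at hand; the submitters' processing notes name the build mm10, a mouse genome, whereas both lines are human. The 786-O table's 58735 identifiers all match GENCODE positions on GRCh38. FPKM steps gave whole reads for 100% of genes in 786-O and 94.9% to 95.2% of those with a length in 5637 (tolerance 0.01), used for depth and a voom alternative.

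After conversion to log2(FPKM + 1), genes averaging 0.5 FPKM or more in a line entered limma 3.58.1 (lmFit, eBayes with trend; R 4.3.3), shCBX7 minus control, Benjamini-Hochberg over all genes tested. The same fit with an interaction over 12 libraries tested the difference between lines. The fits were tested on simulated data. Columns without a group numbered 0, and no 2 libraries held identical values. In the 5637 table, control columns could be tied to their group only, so their numbers are the table's.

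Named are the 10 largest rises and falls in 786-O and the 6 largest in 5637, the 10 highest levels, list members, shared calls, the largest differences between lines, and other genes where the text says so. Members, gene lists, naming rule and motifs were chosen with earlier results of these data known. Some members are not reported here. Alternatives tried were quantile normalization, median centring, a fit without trend, a pseudocount of 0.1, testing without the filter, leaving out each library and a replicate block (in 5637 by column number, added after seeing the data).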

Additional observations from a re-analysis of the deposited data

Results flagged for a closer look

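The test of the difference between the lines (786-O change minus 5637 change, limma interaction, adjusted p under 0.05) marked 45 of the 81 lincRNAs in both tables, beside 53.3% of all genes. Among those named above, GAPLINC differed by 2.08 on the log2 scale, LINC01629 by 1.62, MIR3142HG by 1.24, LINC00519 by 1.13, LINC01504 by 0.98, MIR155HG by 0.97, BISPR by 0.83, CRNDE by 0.71, FOXD2-AS1 by 0.56, NORAD by 0.54, PVT1 by 0.52, TP53TG1 by 0.49, URB1-AS1 by 0.44, LINC01411 by 0.42, MIRLET7BHG by 0.38 and CYTOR by 0.27, each with the higher change in 786-O. The change was lower in 786-O for LINC01508 (-1.04), SNHG8 (-0.75), LINC01929 (-0.66), OLMALINC (-0.30) and SNHG15 (-0.21). CBX7 was lowered less in 5637 (83.3% of control) than in 786-O (61.0%), so line and depth of silencing cannot be told apart. GAPLINC, BISPR, LINC01508 and LINC01929 stayed under 0.5 FPKM on average in 5637, so their differences rest on the 786-O libraries. CYTOR, a regulator of the cytoskeleton, passed the test in 5637, where it was lower (7.23 ± 0.318 FPKM in shCBX7 cells, against 8.17 ± 0.304 FPKM in control cells; SD, n = 3 each; limma adjusted p = 0.015), and not in 786-O (2.25 ± 0.156 FPKM in shCBX7 cells, against 2.0 ± 0.185 FPKM in control cells; SD, n = 3 each; limma adjusted p = 0.225).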

How the results depend on the processing

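Across the alternatives, 106 to 142 of the 281 lincRNAs were called in 786-O, 17 to 25 of about 50 in 5637 and 42 to 48 of about 81 between the lines, and 72.2% to 78.1% of the 786-O calls were rises. The median log2 change in 786-O was 0.26 with a pseudocount of 0.1, 0.28 with voom on recovered reads, which adds no 1 FPKM, and 0.19 to 0.21 with each library left out in turn; in 5637 it was -0.063 to -0.020 with each library left out. The CBX7 change in 5637 was -0.20 to -0.14 with each library left out, and the call was lost in 2 of these fits, as given above. In 1288 comparisons of 94 named results with an alternative, 70 lost and 4 gained a call. Results that changed sign had not been called. With each library left out, the log2 change was -0.13 to 0.051 for ZNF674-AS1 and -0.31 to 0.25 for AC015813.4 in 786-O, and -0.0699 to 0.0945 for SNHG8 and -0.013 to 0.17 for LINC00519 in 5637; SNHG8 was at -3.03e-05 with voom. The SNHG15 difference between the lines was lost with quantile normalization (adjusted p = 0.0888). The cause of these changes was not tested. A voom fit on recovered reads, chosen after seeing the data, called 128 lincRNAs in 786-O (124 of them shared). In 786-O, same-numbered libraries of the arms had correlated deviations of 0.083, 0.077 and 0.057, each library correlating best with its own number; with the replicate number as a block 141 were called, 132 of them shared. In 5637 the control titles all end in 1, so the block used the numbers of the table's columns and was added after seeing the data: deviations correlated at 0.023, -0.031 and -0.0075, and 23 lincRNAs were called, all of them shared. In 786-O, pairs of unlike number correlated at -0.076 to 0.0062. No pair in either line correlated above 0.1, and whether same-numbered libraries share more than a number was not tested. Depth limits the low members: 20 averaged under 10 reads.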
